A study of Mus musculus with 20 samples.

Results

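The translation initiation and elongation factors were described in left ventricular heart tissue of mice on 4 diets. The factors were taken by symbol, as genes beginning with Eif1 to Eif6 or with Eef1 or Eef2, leaving out the eIF2 kinases, the eIF4E-binding proteins, and pseudogenes. This rule, which used no measured value, found 59 of the 15956 genes listed in the count data. RNA sequencing had been done on 20 libraries, 5 from each diet, each taken as 1 mouse. For LP mouse 5 the label names a second sample of that animal, and it was the 1 library of that animal used here. NP mice received the normal protein control diet, LP mice a low protein diet with less casein, HF mice a high-fat diet with the casein content of NP, and HF + LP mice a high-fat diet with the casein content of LP. Carbohydrate was lower in the high-fat diets and higher in the low protein diets than in their counterparts, so neither fat nor protein changed alone. All were male, no genetic alteration is named for any of them, and the age in the labels is 18 months throughout, although the study places tissue collection at a younger age. Body weights in the labels ranged from 33.3 to 52.3 g in NP, from 29.9 to 36.9 g in LP, from 56.1 to 60.9 g in HF, and from 41.2 to 56.1 g in HF + LP.

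Initiation factors place the initiator tRNA on the small ribosomal subunit, recruit the capped mRNA, and find the start codon. Elongation factors then deliver each aminoacyl-tRNA and move the ribosome along the message, the step that uses most of the energy of protein synthesis. Several of these factors are encoded by mRNAs that begin with a run of C and T, the 5′ terminal oligopyrimidine (TOP) motif, whose translation follows nutrient and mTORC1 signaling, and amino acid shortage acts on initiation through eIF2 and its exchange factor eIF2B.

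No factor was called different between diets in any of the 9 comparisons made, where a call needed a mean normalized count over 50 and, by the edgeR quasi-likelihood test, an adjusted p below 0.01. Of the 59 factors, 57 passed the filter on low counts and were tested. Eif5a2 and Eef1akmt3 were counted too rarely to be tested. The values that stood nearest to a difference were those of Eif4b, a helper of the eIF4A helicase, and of Eef1b2, a subunit of the eEF1 exchange factor, both with higher means in the high-fat groups. For Eef1b2 the HF mean, 3992, was close to the LP mean, 3921, beside 3691 in NP and 4480 in HF + LP. Its log2 difference was 0.15 for fat and 0.13 for protein restriction. By DESeq2 in place of edgeR, Eif4b and Eef1b2 were the factors called, as given beside each comparison.

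The libraries held between 12559607 and 23331907 counts each, and the reads came from the 3′ ends of transcripts, so that a count did not grow with transcript length and levels were set beside each other between genes without a length correction. For 13 factors over 5% of the 75-base stretches at the annotated ends also occur in other genes, and their levels are less certain. Mitochondrially encoded genes took 41.3% to 47.1% of the counts of NP mice, 35.4% to 44.5% of LP, 38.1% to 39.8% of HF, and 38.5% to 47.2% of HF + LP mice. HF and NP did not overlap in that share. All 8 ventricular cardiomyocyte markers were present, with summed levels of 595569 to 955941 normalized counts over the 20 mice, while the 4 atrial markers ranged from 970 to 245765 between mice. Mouse 13 of LP stood apart, with a median correlation of 0.907 with the other LP mice, whereas the other 19 mice had 0.942 or more within their diets. The erythroid markers summed to 60801 to 178249 normalized counts in NP mice, and reached 218973 among LP, 223503 among HF, and 313598 among HF + LP mice. Fewer cells of a type and less RNA per cell cannot be told apart in tissue samples such as these.

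The start of an mRNA is where a TOP motif lies, so the sequence around the annotated transcription start is shown for the factors on which the comparisons below turn and for the best matches among the TOP list. The list held 9 factors commonly given as TOP mRNAs, namely Eef1a1, Eef1b2, Eef1d, Eef1g, Eef2, Eif3e, Eif3f, Eif3h, and Eif4b. Each window runs 5′ to 3′ on the strand of the gene, from 10 bases before the RefSeq start through the 20 that follow it. Capitals mark the longest run of C or T that begins with C and holds at least 5 letters, searched on the sense strand only.
Eef1a1 (chr9:78481705-78481734, minus strand, GRCm38.p6): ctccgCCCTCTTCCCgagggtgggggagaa
Eef1a2 (chr2:181156996-181157025, minus strand): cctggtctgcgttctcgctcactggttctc
Eef1b2 (chr1:63176821-63176850, plus strand): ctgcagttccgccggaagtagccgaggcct
Eef2 (chr10:81176621-81176650, plus strand): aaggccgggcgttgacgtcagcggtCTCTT
Eif3f (chr7:108934405-108934434, plus strand): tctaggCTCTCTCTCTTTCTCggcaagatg
Eif4b (chr15:102073763-102073792, plus strand): tcccgtcggacgccgcgccaCCCCCTCgcg
A RefSeq window was given for 46 of the factors and for 5 of the 9 on the TOP list. The run was found in 4 of those 5, in 18 of the 46 (39.1%), and in 39.6% of the 27025 RefSeq genes with a window, so a run of this length is common at transcription starts. A run was counted anywhere in the window, and none of those printed begins at the annotated start. The runs of Eef1a1 and Eif3f span that start and those of Eef2 and Eif4b begin after it, so a counted run does not by itself show a TOP motif. The paralogs Eef1a1 and Eef1a2 differed in it, since the window of Eef1a2 held no run of 5 that begins with C, and the window of Eef1b2 held none either. The Eef1a2 window does hold runs of 5 that begin with T, so this contrast depends on that rule.

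Levels spanned more than 3 orders of magnitude. The 5 most abundant factors were Eif4g2, a relative of eIF4G that lacks the eIF4E-binding part, at 12161 normalized counts on average over the 20 mice, Eef1a2, the muscle and neuron form of the factor that delivers aminoacyl-tRNA, at 9810, Eef2, the translocation factor, at 8816, Eif1, which guards start codon selection, at 5665, and Eif5b, the GTPase that joins the ribosomal subunits, at 4914. Together they made up 43.1% of the normalized counts of all 59 factors. The 3 lowest were Eif3j2, at 13.7, Eif5a2, the minor form of eIF5A, at 7.53, and Eef1akmt3, a lysine methyltransferase of eEF1A, at 3.1. The 20-mouse ranges of neighbors in the order of levels overlapped in every one of the 58 neighboring pairs, so the order holds between distant ranks and not between neighbors. A normalized count over 1000 was reached by 24 factors.

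**Figure D1:**
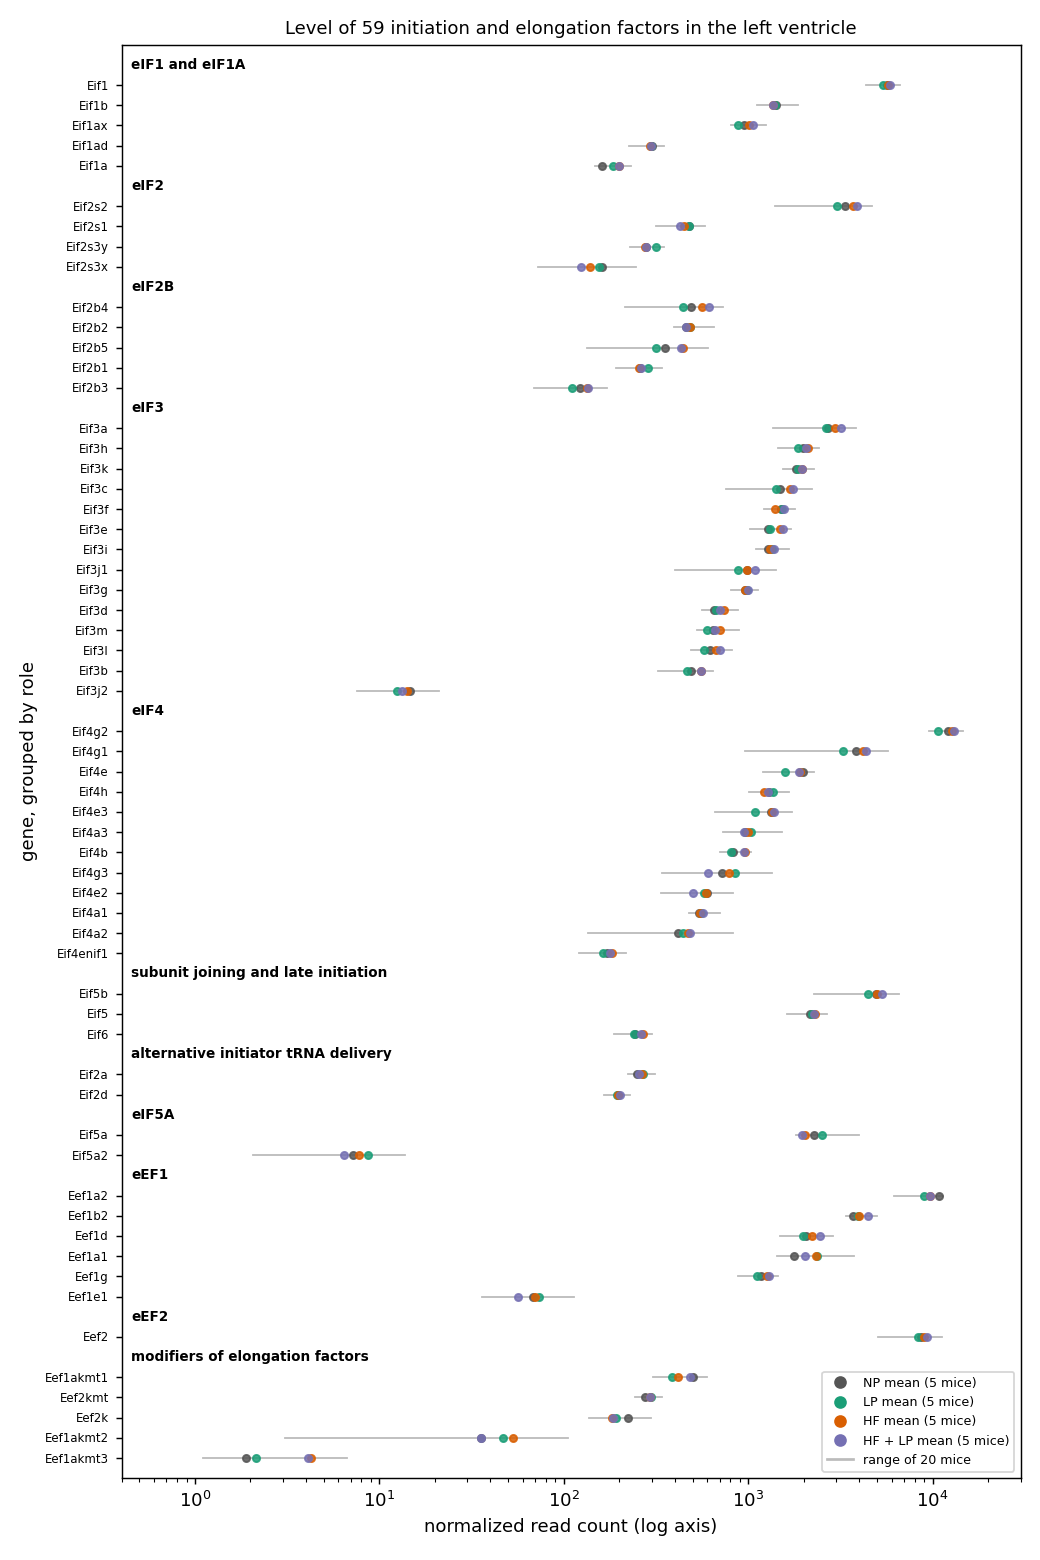
Mean normalized read count per diet (colored points, 5 mice each) and the range of the 20 mice (gray lines) for the 59 factors, grouped by role, on a log axis. Eif4g2, Eef1a2, and Eef2 lie at the top, Eif3j2, Eif5a2, and Eef1akmt3 at the bottom, and the 4 diet means of a factor lie close together beside the distance between factors.

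By role, the 12 genes grouped as eIF4, whose core members bind the cap, unwind the message, and bridge it to the ribosome, summed to 24849 normalized counts. Of these, Eif4g2 alone held 12161. The 6 genes grouped as eEF1 summed to 19413, and the 14 eIF3 genes, which form the scaffold on the small subunit, to 17096. The eIF2B genes, the exchange factor that recharges eIF2, were far lower, with 1778 over 5 genes, from Eif2b4 at 528 to Eif2b3 at 125. Within eIF2, which carries the initiator tRNA, Eif2s2 was at 3499, Eif2s1, the subunit whose phosphorylation slows initiation, at 458, and the sex-linked forms of the gamma subunit at 288 for Eif2s3y and 145 for Eif2s3x. Among the eIF3 genes, Eif3a was highest at 2887 and Eif3j2 lowest at 13.7, and 66.8% of the 75-base stretches at the annotated 3′ ends of Eif3j2 also occur in Eif3j1, so its count is uncertain.

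The high-fat diet was compared with the control diet first, to ask whether these genes differed with the high-fat diet at normal protein content. In HF compared with NP, 37 of the 13991 genes tested were called, 0.264%, and no factor was. Factors with an unadjusted p under 0.05 numbered 2 on the higher side, beside 5.17% of all genes, and 0 on the lower side, beside 7.91%. The median log2 fold change of the factors was 0.090, with 42 above 0 and 15 below, while the median of all genes was -0.001. With 1 mouse left out in turn, the median of the factors ran from 0.053, without HF mouse 2, to 0.13, without HF + LP mouse 3. The number of factors with such a p ran from 1 to 5, and the 5 also came without HF + LP mouse 3, which enters through the shared scaling, spread, and filter. With only HF and NP in the model, the median of the factors was 0.13 and that of all genes was 0.040.

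Eif1a, a form of the scanning factor eIF1A, measured 150, 182, 156, 174, and 147 normalized counts in NP (mice 4, 5, 3, 6, and 8) and 187, 186, 187, 225, and 213 in HF (mice 1 to 5). The lowest HF mouse, at 186, stood above the highest NP mouse, at 182. The log2 fold change was 0.30 (SE 0.11, edgeR adjusted p = 0.233). It was the 1 factor without overlap on the higher side, where 2.07% of all genes had none, and no factor was without overlap on the lower side, where 3.60% were. The summed ventricular markers ran from 656148 to 830204 in HF and from 809370 to 955941 in NP, and all 8 had a log2 fold change below 0. Fold changes above 0 were found for all 4 atrial markers, with a median of 1.31, all 6 fibroblast markers, with 0.24, all 5 macrophage markers, with 0.40, and all 5 erythroid markers, with 0.58. The summed atrial markers, however, had a median of 3228 normalized counts in HF mice and 20853 in NP mice. Their highest mouse had 204494 in HF and 60406 in NP. No marker was called in this comparison, and the part of these cell types and of the mitochondrial share in the differences of the factors was not tested.

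Eif4b measured 849, 792, 782, 926, and 812 in the same NP mice and 910, 1025, 861, 1033, and 979 in HF. The groups overlapped through NP mouse 6, which lay above 2 HF mice. Its log2 fold change was 0.21 (SE 0.085, edgeR adjusted p = 0.275). The factor with the next smallest p was Eef1akmt1, a lysine methyltransferase of eEF1A, which averaged 418 ± 48.1 in HF against 504 ± 27.1 in NP (SD, n = 5), with a log2 fold change of -0.27 (SE 0.13, edgeR adjusted p = 0.406).

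Eef1a1, the widely expressed form of eEF1A, averaged 2331 ± 493 in HF against 1765 ± 285 in NP (SD, n = 5), with a log2 fold change of 0.40 with a 95% interval from -0.052 to 0.86 (edgeR adjusted p = 0.466). Eef1a2 averaged 9646 ± 649 in HF against 10893 ± 512 in NP, for a log2 fold change of -0.18 with an interval from -0.43 to 0.079. The count of Eef1a1 is uncertain, since 61.5% of the 75-base stretches at its annotated ends also occur in other genes, mainly pseudogenes, and how such reads were assigned is not given in the sources used here.

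In HF + LP compared with LP, which sets the high-fat diet against the normal-fat diet at low protein content, 14 genes were called, 0.100%, and again no factor. On the higher side 8 factors had an unadjusted p under 0.05, beside 6.26% of all genes, and on the lower side 0, beside 9.66%. Without LP mouse 13 the 8 became 4, and without HF + LP mouse 4 they became 5. The median log2 fold change of the factors was 0.11, or 0.071 without LP mouse 13, and that of all genes was -0.030. All 14 eIF3 genes had a fold change above 0, from 0.013 to 0.32, or 12 of 14 without that mouse, whereas 6404 of all 13991 genes did. Eif3a, Eif3c, and Eif3j1 largely rose and fell together between mice, so such counts are not of independent genes. The 3 adipocyte markers were all lower in HF + LP at an unadjusted p under 0.05, with a median of -4.69, and summed to 66.7 to 4393 normalized counts in LP and 11.8 to 159 in HF + LP. All 4 atrial markers also lay below 0, with a median of -1.48, and the other groups with several markers tested went both ways. The part of these cell types in the values of the factors was not tested.

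Eif4g2 had the smallest p of the 57 factors. It measured 11398, 9549, 10214, 10806, and 11787 in LP (mice 2, 13, 20, 15, and 5) and 11862, 13775, 11463, 14560, and 13340 in HF + LP (mice 1 to 5). The groups overlapped through LP mouse 5 and HF + LP mouse 3. The log2 fold change was 0.27 (SE 0.090, edgeR adjusted p = 0.150). Eif1ax, the X-linked form of eIF1A, averaged 1057 ± 130 in HF + LP and 882 ± 47.9 in LP (SD, n = 5), a log2 fold change of 0.26 (SE 0.10, edgeR adjusted p = 0.185).

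Eif4b measured 874, 704, 850, 829, and 791 in LP and 948, 877, 895, 1003, and 1008 in HF + LP. All HF + LP mice lay above all LP mice. Its log2 fold change was 0.23 (SE 0.085, edgeR adjusted p = 0.199). Eef1b2 was also without overlap, with 3780, 3954, 4005, 3975, and 3889 in LP and 4024, 4391, 4525, 4980, and 4479 in HF + LP, and a log2 fold change of 0.19 (SE 0.075, edgeR adjusted p = 0.211). Of all genes, 0.915% were without overlap on the higher side and 0.951% on the lower side, where no factor was. The other factors with an unadjusted p under 0.05 were Eef1d, an eEF1 exchange subunit, with a log2 fold change of 0.31, Eef1akmt1, with 0.33, and the eIF3 subunits Eif3l, with 0.28, and Eif3b, with 0.27. Without LP mouse 13, these 4 no longer had an unadjusted p under 0.05, with 0.22 for Eef1d, 0.28 for Eef1akmt1, 0.24 for Eif3l, and 0.16 for Eif3b.

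**Figure D2:**
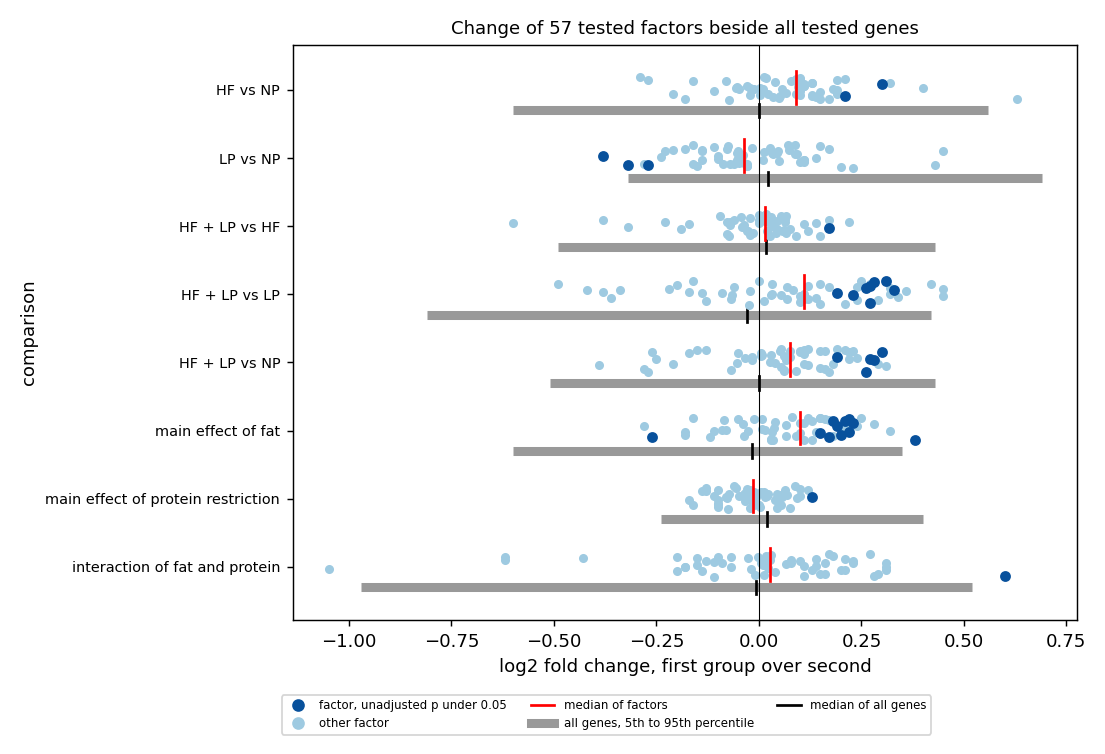
Log2 fold changes of the 57 tested factors (points, dark where the unadjusted p was under 0.05) in 8 comparisons, with the median of the factors (red) and, under each row, the median and the 5th to 95th percentile of all 13991 genes tested. The factor medians lie at 0.090 in HF vs NP, 0.11 in HF + LP vs LP, and 0.10 for the main effect of fat, and close to 0 in the comparisons of protein content.

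Over both protein levels, the main effect of the high-fat diet called 140 genes, 1.00%, and no factor by edgeR. The factors with an unadjusted p under 0.05 were 10 on the higher side, beside 8.28% of all genes, and 1 on the lower side, beside 12.6%. The smallest p was that of Eif4b, with a log2 difference of 0.22 (SE 0.060, 95% interval 0.092 to 0.34, edgeR adjusted p = 0.0430). Eef1b2 followed with 0.15 (SE 0.053, adjusted p = 0.100) and Eif3e, an eIF3 subunit, with 0.22 (SE 0.083, adjusted p = 0.126). By DESeq2, Eif4b with 0.23 (adjusted p = 0.00192) and Eef1b2 with 0.16 (adjusted p = 0.00276) were called. DESeq2 called more genes in all, 398 in place of 140.

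The remaining higher factors were Eif4g2, at 0.17, Eif1ax, at 0.18, Eif3b, at 0.23, Eef1d, at 0.21, Eif1a, at 0.20, Eif3l, at 0.19, and Eif2b5, the catalytic subunit of eIF2B, at 0.38. The 1 lower factor was Eif5a, which helps the ribosome through difficult peptide bonds, at -0.26. Eif5a averaged 2269 ± 485 in NP mice, 2521 ± 883 in LP mice, 2029 ± 94.9 in HF mice, and 1968 ± 215 in HF + LP mice (SD, n = 5), and LP mouse 13 alone reached 4011. Without that mouse its difference was -0.15 and that of Eif2b5 was 0.28, and neither had an unadjusted p under 0.05. With the library number as a term, the difference of Eif4b was 0.21 (edgeR adjusted p = 0.0428), and without LP mouse 13 it was 0.19 (adjusted p = 0.0566).

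By role, the main effect of fat lay above 0 in 13 of the 14 eIF3 genes, with a median log2 difference of 0.14, in 4 of the 5 eIF2B genes, with 0.21, in 4 of the 6 eEF1 genes, with 0.12, and in 8 of the 12 eIF4 genes, with 0.10. Without LP mouse 13 the count was 11 for eIF3, with a median of 0.10, and 4 for eIF2B, with 0.14. For all genes it lay above 0 in 6561 of 13991. The eIF2 subunits went the other way in count, with 1 of 4 above 0 and a median of -0.10, and none of the 4 had an unadjusted p under 0.05. The unadjusted p was under 0.05 in 3 eIF3 genes, 2 each of the eIF1, eEF1, and eIF4 groups, and 1 each of eIF2B and eIF5A, all higher except Eif5a. The eIF2B and eIF5A counts were 0 without LP mouse 13. The 3 adipocyte markers also had an unadjusted p under 0.05 on the lower side for fat, with a median of -2.44, which joins -0.17 in HF compared with NP and the -4.69 in HF + LP compared with LP. All 6 fibroblast and all 5 erythroid markers lay above 0 for fat, with medians of 0.084 and 0.49, and 1 ventricular and 1 smooth muscle and pericyte marker were called. The part of these cell types in the counts above was not tested.

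Eif3e measured 1220, 1229, 1299, 1241, and 1408 normalized counts in NP and 1376, 1025, 1496, 1242, and 1401 in LP, beside 1343, 1141, 1696, 1502, and 1718 in HF and 1710, 1448, 1677, 1501, and 1375 in HF + LP. The high-fat mice overlapped the others, with HF mouse 2 below all NP mice. Eif2b5 measured 239, 366, 423, 425, and 319 in NP, 354, 133, 295, 306, and 503 in LP, 495, 606, 373, 392, and 350 in HF, and 515, 359, 413, 370, and 508 in HF + LP. Its lowest value came from LP mouse 13 and its highest from HF mouse 2, and the diets overlapped throughout.

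Adding protein restriction to the normal-fat diet, LP compared with NP, called no gene at all (0%). Of the factors 0 had an unadjusted p under 0.05 on the higher side, beside 5.02% of all genes, and 3 on the lower side, beside 2.21%. Without LP mouse 13 the 3 became 1, Eef1akmt1, and without LP mouse 5 there were 4 on the lower side and 1 on the higher side. The median log2 fold change was -0.036 for the factors, or 0.009 without LP mouse 13, and 0.023 for all genes. No factor was without overlap in either direction, beside 0.443% of genes higher and 0.343% lower.

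Eef1akmt1 had the smallest p. It measured 545, 473, 508, 503, and 487 in NP and 484, 335, 306, 488, and 327 in LP. LP mice 2 and 15 lay among the NP mice and the other 3 lay well below them. The log2 fold change was -0.38 (SE 0.13, edgeR adjusted p = 0.568), and -0.34 without LP mouse 13.

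Eif4e, the cap-binding protein, measured 2035, 1844, 2204, 1994, and 1794 in NP and 1756, 1197, 1436, 1708, and 1810 in LP. LP mouse 5 alone lay above an NP mouse. The log2 fold change was -0.32 (SE 0.12, edgeR adjusted p = 0.609), and -0.24 without LP mouse 13, which was the lowest. Eef1a2 measured 11223, 10817, 10050, 11028, and 11346 in NP and 10714, 6183, 8086, 10778, and 9340 in LP, with a log2 fold change of -0.27 (SE 0.12, edgeR adjusted p = 0.664), and -0.17 without that mouse. Eef1a1 had a log2 fold change of 0.43 with a 95% interval from -0.024 to 0.88, and 0.19 without it.

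In HF + LP compared with HF, which asks whether protein restriction altered these genes on the high-fat diet, no gene was called either (0%). A factor with an unadjusted p under 0.05 appeared 1 time on the higher side, beside 2.41% of all genes, and 0 times on the lower side, beside 2.43%. There was none without HF mouse 1, 2, or 5, or without HF + LP mouse 3, 4, or 5. The median log2 fold change was 0.016 for the factors and 0.017 for all genes, and that of the factors was -0.019 without HF mouse 3 and -0.001 without HF + LP mouse 3, so its sign rested on single mice. No factor was without overlap, beside 0.543% of genes higher and 0.636% lower.

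The 1 factor was Eef1b2, which measured 4045, 3740, 4061, 4087, and 4028 in HF beside the HF + LP values above. HF + LP mouse 1, at 4024, lay among the HF mice and the other 4 lay above them. The log2 fold change was 0.17 (SE 0.075, edgeR adjusted p = 0.967). The next smallest p-values belonged to Eif3f, an eIF3 subunit, with 0.17 (SE 0.10), and Eef1akmt1, with 0.22 (SE 0.13), both at an adjusted p of 0.999. By role, 10 of the 14 eIF3 genes, 6 of the 12 eIF4 genes, 4 of the 6 eEF1 genes, and 2 of the 4 eIF2 genes lay above 0, and the medians of these groups lay between -0.030 and 0.056. In the same comparison 7 of the 8 ventricular markers lay above 0, while all 6 fibroblast markers, with a median of -0.30, all 5 macrophage markers, with -0.33, all 4 atrial markers, with -1.36, and all 3 adipocyte markers, with -2.20, lay below 0. The summed atrial markers had medians of 2451 in HF + LP and 3228 in HF, with the highest mice at 87124 and 204494. The summed adipocyte markers had medians of 16.7 and 13.0 in the same order, with the highest mice at 159 and 1042. None of these markers was called, and their part in the values of the factors was not tested. Eef1a1 had a log2 fold change of -0.19 (95% interval -0.64 to 0.26) and Eef1a2 one of 0.005 (95% interval -0.25 to 0.26).

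The main effect of protein restriction called no gene (0%). On the higher side 1 factor had an unadjusted p under 0.05, beside 3.40% of all genes, and on the lower side 0, beside 2.08%. The 3 smallest p-values belonged to Eef1b2, with a log2 difference of 0.13 (SE 0.053, edgeR adjusted p = 0.853), Eif4e, with -0.17 (SE 0.086), and Eef1a2, with -0.13 (SE 0.086). Without LP mouse 13 these were 0.12 for Eef1b2, -0.13 for Eif4e, and -0.083 for Eef1a2. The 95% interval of 53 of the 57 factors lay inside a 1.5-fold difference in either direction, all but Eef1akmt2, Eif3j2, Eif4a2, and Eif4g3. In the direct comparisons fewer intervals did, with 43 of 57 in LP compared with NP and 47 of 57 in HF + LP compared with HF.

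HF + LP compared with NP, which differ in fat and in protein, called 4 genes, 0.0286%, and no factor by edgeR. On the higher side 5 factors had an unadjusted p under 0.05, beside 3.9% of all genes, and on the lower side 0, beside 4.87%. The 5 became 2 without NP mouse 4 or 5, and 3 without NP mouse 8 or HF + LP mouse 1. Eef1b2 measured 3968, 3408, 3891, 3660, and 3529 in NP. All HF + LP mice lay above these, where 0.965% of all genes had no overlap on the higher side, and no factor lay wholly below, where 1.61% of genes did. Its log2 fold change was 0.28 (SE 0.075, 95% interval 0.12 to 0.44, edgeR adjusted p = 0.218), and DESeq2 gave the same size with an adjusted p of 0.00132 and called it.

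The other 4 were Eif1a, with a log2 fold change of 0.30, Eif3e, with 0.27, Eif4b, with 0.19, and Eef1d, with 0.26. Of these 5, Eef1b2, Eif3e, Eif4b, and Eef1d are on the TOP list. The 9 TOP factors all had a fold change above 0, from 0.061 to 0.28, with a median of 0.19. The 87 tested cytosolic ribosomal protein genes, whose mRNAs carry the TOP motif as a class, had a median of 0.22 in the same comparison, with 33 at an unadjusted p under 0.05 on the higher side, 0 on the lower side, and 0 called. The 48 factors not on the list had a median of 0.057, with 1 on the higher side. All 5 erythroid markers had a fold change above 0 here, with a median of 0.87 and 4 at an unadjusted p under 0.05, and their part in these values was not tested.

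The TOP factors were set beside the other 48 factors in the other comparisons too. In LP compared with NP, 4 of the 9 lay above 0, with a median of -0.040 beside -0.033 for the other 48, and without LP mouse 13 it was 8 of 9, with a median of 0.046 beside 0.004. In HF + LP compared with HF, 6 of 9 lay above 0, with a median of 0.059 beside 0.006. In HF compared with NP, 8 of 9 did, with 0.11 beside 0.058, and in HF + LP compared with LP also 8 of 9, with 0.19 beside 0.092, or 0.13 beside 0.068 without LP mouse 13. The ribosomal protein genes had medians of 0.090 in LP compared with NP, 0.087 in HF + LP compared with HF, and 0.11 in each of the other 2. The erythroid markers had medians of 0.61, 0.24, 0.58, and 0.25 in the same order of comparisons. The comparisons with NP share the NP mice.

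**Figure D3:**
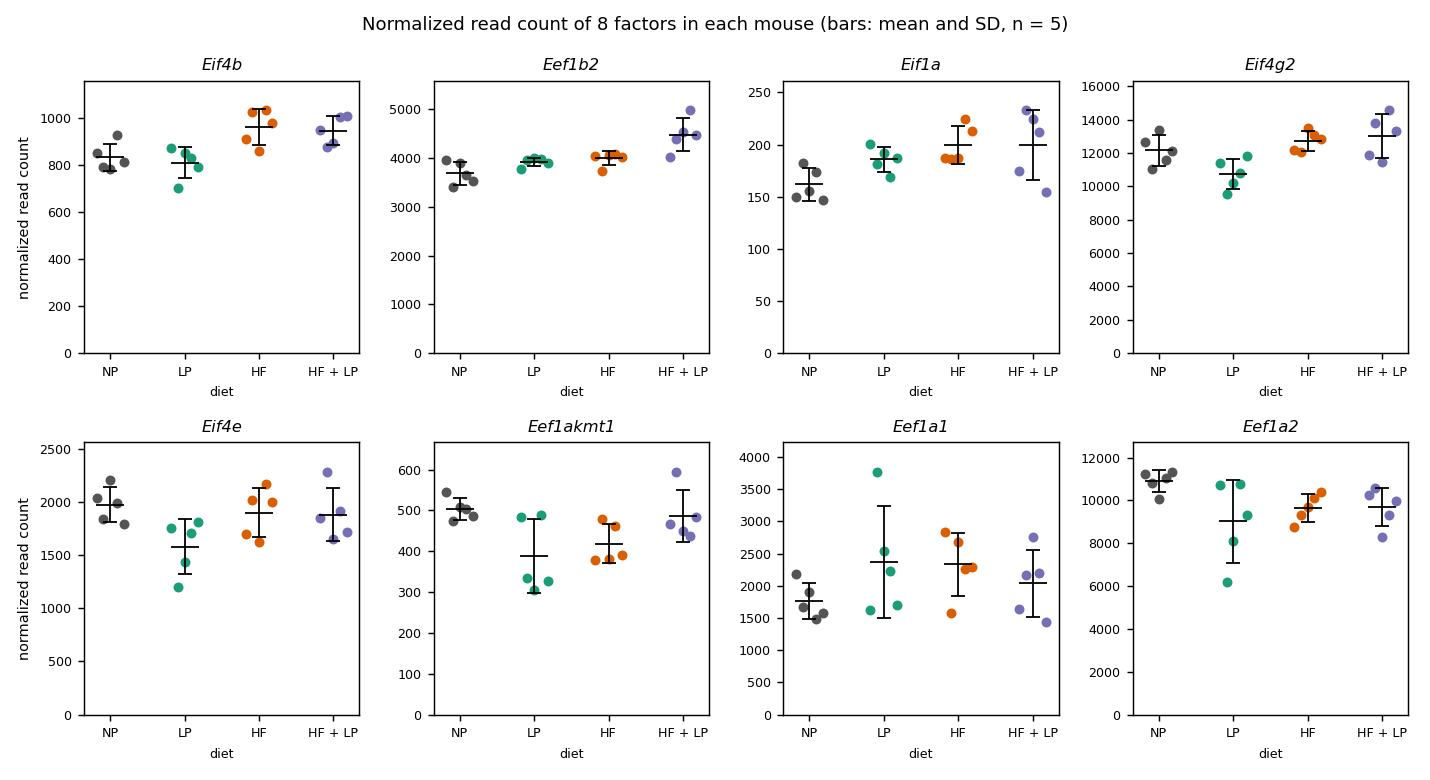
Normalized read count of 8 factors in each mouse by diet (points), with the mean and SD of 5 mice (bars), on axes that start at 0. Eif4b sits highest in HF and HF + LP and Eef1b2 in HF + LP. Eif4e and Eef1akmt1 are lowest on average in LP, and LP mouse 13 holds the highest Eef1a1 value, 3773, and the lowest Eef1a2 value, 6183.

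The interaction of fat and protein content, which asks whether protein restriction acted differently at normal and at high fat content, called no gene (0%). On the higher side 1 factor had an unadjusted p under 0.05, beside 2.86% of all genes, and on the lower side 0, beside 4.31%. It was Eef1akmt1, with an interaction of 0.60 on the log2 scale (SE 0.19, 95% interval 0.20 to 0.99, edgeR adjusted p = 0.614). Its mean was lower in LP than in NP, at 388 compared with 504, and higher in HF + LP than in HF, at 486 compared with 418. Eef1a1 came next with -0.62 (SE 0.31), and -0.39 without LP mouse 13, followed by Eif4e with 0.31 (SE 0.17). In the test for any difference between the 4 diets, 67 genes were called, 0.479%, and no factor by edgeR. Of the factors 4 had an unadjusted p under 0.05, beside 15.9% of all genes, namely Eef1b2, Eif4b, Eif4g2, and Eef1akmt1. The 4 became 2 without LP mouse 13 or 20 and 10 without HF + LP mouse 3.

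The precision of the comparisons differed between factors. The standard error of a pairwise log2 fold change had a median of 0.13 over the 57 factors and ran from 0.075 to 0.70. In HF compared with NP the 95% interval of 43 factors lay inside a 1.5-fold difference and that of 56 inside a 2-fold one, and in HF + LP compared with HF these were 47 and 55. Eef2 was among the well-bounded ones, with 8625 ± 1178 in NP mice, 8320 ± 1864 in LP mice, 8969 ± 1229 in HF mice, and 9352 ± 1208 in HF + LP mice (SD, n = 5), and an interval in HF compared with NP from -0.26 to 0.37. Eif2s1, with 475 ± 70.1, 478 ± 39.9, 451 ± 30.0, and 427 ± 78.7 in the same order, had one from -0.33 to 0.18. Eif1, Eif5, and Eif6, the last of which keeps the ribosomal subunits apart, had intervals inside 1.5-fold in both comparisons. Eef2k, the kinase that inhibits eEF2, averaged 223 ± 46.1 in NP mice, 192 ± 26.9 in LP mice, 182 ± 39.1 in HF mice, and 184 ± 34.4 in HF + LP mice, with a log2 fold change of -0.29 in HF compared with NP and an interval from -0.64 to 0.053. Some factors had wider intervals, and Eif4g1, the bridge between cap and ribosome, had an interval from -0.53 to 0.79 in the same comparison. Others were Eif3a, from -0.37 to 0.64, and Eif2b5, from -0.20 to 0.84.

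Several factors come as paralogs, and the share of one form in its family was taken from raw counts within each mouse, which needs no scaling between libraries. Eef1a2 made up 86.1% ± 2.08 of the eEF1A counts in NP mice, 78.5% ± 10 in LP mice, 80.6% ± 3.85 in HF mice, and 82.5% ± 4.87 in HF + LP mice (SD, n = 5). In HF, 4 of 5 mice lay below all NP mice, a difference of -5.48 percentage points (two-sided exact permutation test, p = 0.0238, adjusted p = 0.476 over the 20 tests of 5 shares in 4 comparisons). In LP, 3 of 5 mice lay below all NP mice, and the mean differed by -7.58 points (exact permutation test, p = 0.0794, adjusted p = 0.794). Without LP mouse 13, at 62.1%, the difference was -3.48 points (exact permutation test, p = 0.151). With 5 mice against 5 this test cannot go below 0.00794, and no share passed the adjustment.

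Eif4a2, a paralog of the helicase Eif4a1, ranged from 21.2% to 60.4% of the eIF4A pair within HF alone and averaged 42.0% ± 17.2 there, 42.4% ± 9.19 in NP, 44.2% ± 4.01 in LP, and 45.0% ± 10.8 in HF + LP (SD, n = 5). Eif4e3, an atypical cap-binding form, made up 33.8% ± 5.87 of the eIF4E family in NP mice, 33.3% ± 4.58 in LP mice, 35.0% ± 4.00 in HF mice, and 36.5% ± 5.22 in HF + LP mice. Eif3j1, the loosely bound eIF3 subunit, stood at 982 ± 272, 877 ± 329, 991 ± 208, and 1095 ± 287 normalized counts in NP, LP, HF, and HF + LP, and its copy Eif3j2 at 14.7, 12.5, 14.2, and 13.3. The Y-linked Eif2s3y made up more than the X-linked copy in every mouse, from 55.9% to 77.6%. Eif5a2 never exceeded 0.616% of the eIF5A counts. The adjusted p of these 16 tests lay between 0.896 and 0.952 (exact permutation tests).

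**Figure D4:**
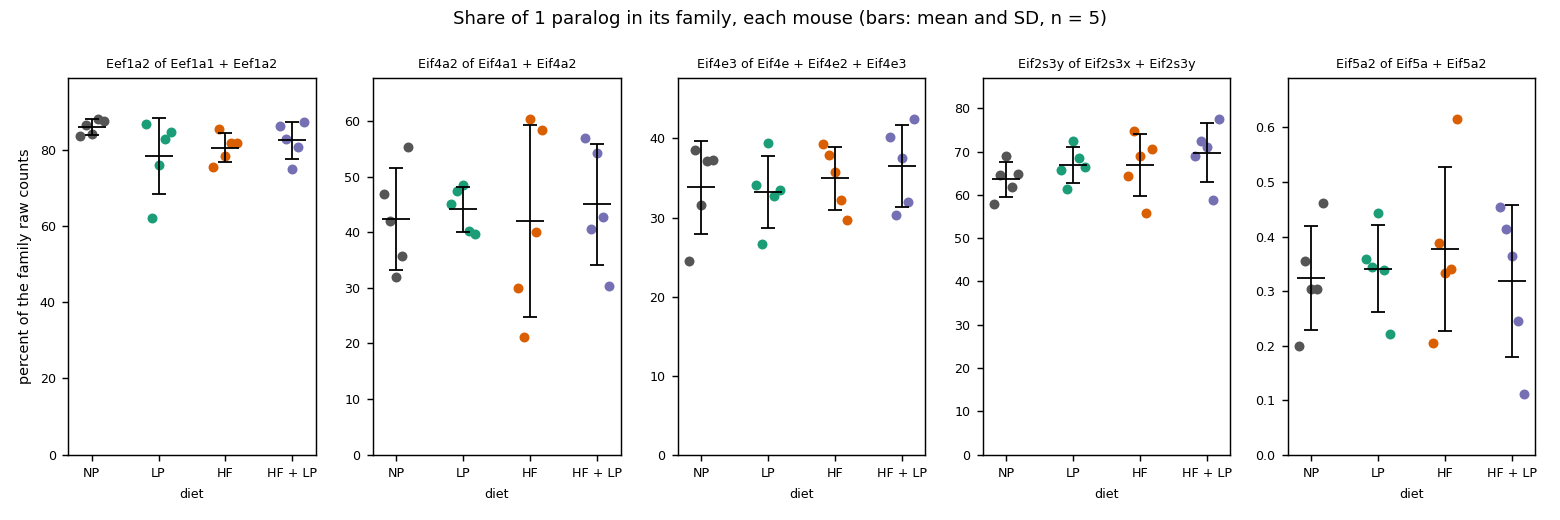
Share of 1 paralog in the raw counts of its family in each mouse (points, percent), by diet, with the mean and SD of 5 mice (bars). The Eef1a2 share is tightest and highest in NP, at 86.1% ± 2.08, the Eif4a2 share spreads from 21.2% to 60.4% in HF, and the diets overlap in every family.

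All 59 factors together took 0.536% ± 0.0235 of the raw counts in NP mice, 0.558% ± 0.0523 in LP mice, 0.610% ± 0.0119 in HF mice, and 0.556% ± 0.0384 in HF + LP mice (SD, n = 5). Every HF mouse, from 0.596% to 0.629%, lay above every NP mouse, from 0.511% to 0.570%. Without Eef1a1, Eef1a2, and Eef2 the shares were 0.416%, 0.436%, 0.479%, and 0.440% in the same order. The mitochondrial share of the libraries, given above, was lower in HF than in NP. With the mitochondrially encoded genes left out of the total, the factors took 0.944% ± 0.0255 in NP and 0.995% ± 0.0194 in HF, and the HF mice began at 0.979% where the NP mice ended at 0.977%.

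Among 39 other listed genes of translation and its control, 8 of them mitochondrial translation factors, all were tested and 0 were called in any comparison. In HF compared with NP, 1 (2.56%) had an unadjusted p under 0.05 on the higher side and 3 (7.69%) on the lower side, beside 5.17% and 7.91% of all genes, so the lower count is at the background. The lower ones were Mtor, the kinase of mTORC1, with a log2 fold change of -0.23, its partner Rptor, with -0.43 (SE 0.11, edgeR adjusted p = 0.0455), and the S6 kinase gene Rps6kb2, with -0.40. For the main effect of fat 3 (7.69%) were on the higher side and 6 (15.4%) on the lower side, beside 8.28% and 12.6% of all genes. Of the 6, 5 were among the 10 genes of mTORC1 and its effectors. Rptor had the smallest p there, with a log2 difference of -0.33 (SE 0.074, edgeR adjusted p = 0.0145). Of the 4 eIF2 kinases, Eif2ak2, which is activated by double-stranded RNA, had 0.46 in HF compared with NP and -0.65 in HF + LP compared with HF (edgeR adjusted p = 0.326 and 0.473). The other 3 had no unadjusted p under 0.05 in either, with -0.002 and -0.029 for Eif2ak1, 0.30 and -0.29 for Eif2ak3, and -0.18 and 0.084 for Eif2ak4. In HF + LP compared with HF, Eif2ak2 was the 1 of the 39 genes (2.56%) on the lower side, beside 2.43% of all genes, so that count is at the background. These comparisons share the HF mice.

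Some factors varied widely between mice of the same diet. The coefficient of variation within diets had a median of 13.3% over the 55 factors with a mean normalized count over 50 and of 17.4% over the 10159 genes at such levels. It exceeded 20% in 15 of these factors (27.3%) and in 38.2% of the genes. Eef1b2 was the steadiest of all factors, at 5.58%. Eif4g3, a close relative of Eif4g1, varied most of the 15, at 49.4%, followed by Eif4a2, at 43.6%, and Eif4g1, at 31.7%. Of the 15, 9 were lowest of all 20 mice in LP mouse 13, among them Eif4g1, at 967 beside 2057 to 5711 in the other mice, Eif3a, at 1360, and Eif5b, at 2282. In that mouse Eif4g3 was at 1318, close to its highest value of 1353 in HF mouse 3.

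**Figure D5:**
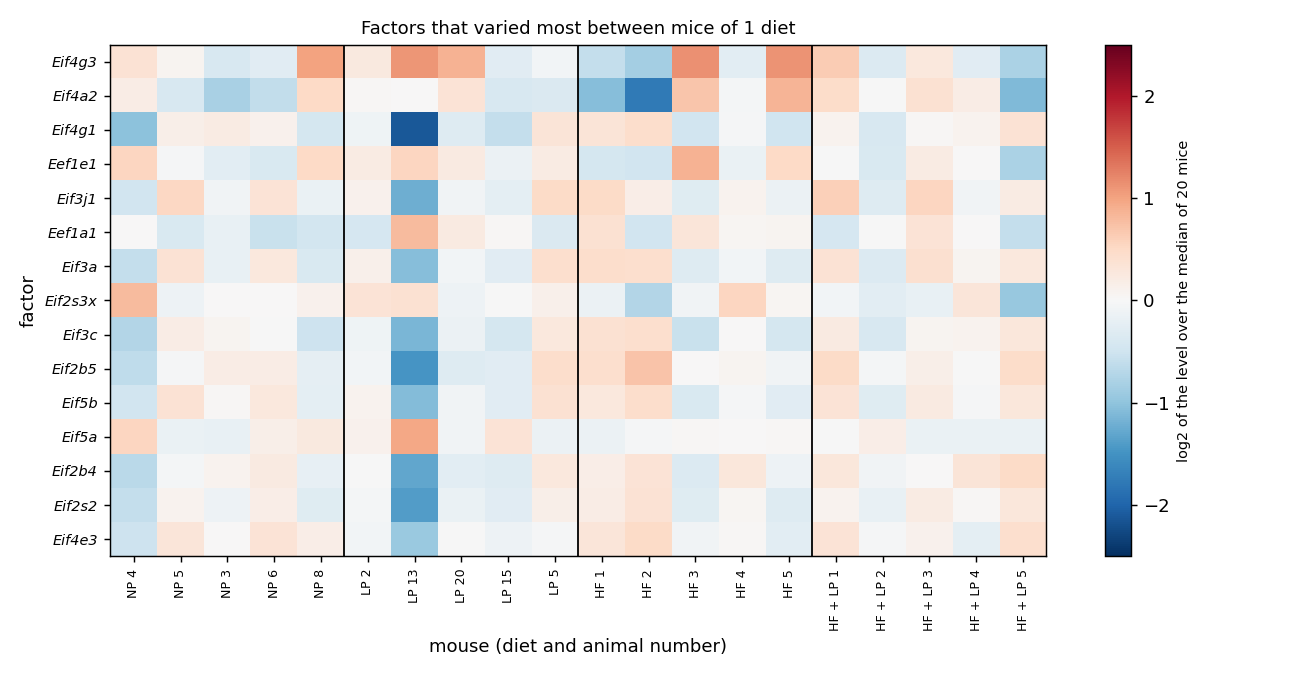
Level of the 15 factors whose coefficient of variation within diets exceeded 20%, in each of the 20 mice, as log2 of the normalized count over the median of the 20 mice. LP mouse 13 is lowest for 9 of them, and Eif4g3 and Eif4a2 are high in HF mice 3 and 5 and low in HF mice 1 and 2.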

How the data were processed

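Left ventricular RNA of 20 mice was sequenced with the QuantSeq 3′ kit on a NextSeq instrument (75-bp reads), and the raw counts per Ensembl gene were deposited by the authors after alignment on the BlueBee platform. The submitters' notes name GRCm38 and DESeq2 1.22.2. The annotation and counting program are not given in the sources used here. Every listed gene had at least 60 counts over the 20 libraries. Symbols were found for 15917 genes, and coordinates come from GENCODE M21 and RefSeq (GRCm38.p6).

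Counts were filtered (filterByExpr by diet, 13991 genes) and scaled by TMM, and the 20 libraries entered 1 quasi-likelihood fit in edgeR 4.0.16 (R 4.3.3), whose p-values were adjusted by Benjamini-Hochberg over the tested genes. Normalized counts are counts divided by the TMM-scaled library size, times its mean. Standard errors were derived from the F statistic. Calls needed a mean normalized count over 50 beside an adjusted p below 0.01, after the study's thresholds. Paralog shares were compared by exact permutation in Python 3.11.15 (numpy 2.4.6).

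The fit was tested on simulated counts with known changes before use.

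Genes were named by a rule: the called factors of a comparison or else its 3 with the smallest p, the paralog families, 1 core factor per role, the 5 highest and 3 lowest, and those without overlap at an unadjusted p under 0.05. The remaining factors at an unadjusted p under 0.05, the pathway genes, and Eif4g3 were named after their values were seen. The members, lists, and tests were chosen with earlier results of these data known. Nothing states that the mice were handled separately beyond their animal numbers. The study states that mice were housed in groups, and the cage of each mouse is not given in the sources used here. The p-values therefore measure the spread between these mice and not between cages. Alternatives were RLE size factors, DESeq2 1.42.0, other filters and thresholds, mitochondrially encoded genes left out, a term for the library number, the animal number as a block, the compared groups alone, and each mouse left out in turn.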

Additional observations from a re-analysis of the deposited data

Results flagged for a closer look

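Among 160 sets of 5 mice, made of 35 named factors and 5 paralog shares on each diet, 6 held a mouse that lay apart from the other 4 by more than 0.71 of the whole range (Dixon's limit for 5 values). Chance sets a mouse apart in about 1 in 20 such sets. Of the 6, 3 came from LP mouse 13. In that mouse Eef2 was at 5038 normalized counts where the other LP mice had 8587 to 9419, Eif3b at 326 beside 480 to 526, and Eif4e3 at 658 beside 1136 to 1238. In HF mouse 2, Eef1b2 was at 3740 beside 4028 to 4087, so the low end of HF in the comparison of HF + LP with HF rests on 1 mouse. In NP mouse 4, Eif2s3x was at 245 beside 129 to 152. In NP mouse 8, Eif5a2 was at 11.3 beside 5.50 to 6.88, a level near the limit of counting.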

How the results depend on the processing

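The count of called factors was 0 in all 9 comparisons and stayed 0 in 271 of 275 recomputations. By DESeq2, 1 factor was called in HF + LP vs NP (Eef1b2), 2 for the main effect of fat (Eef1b2 and Eif4b), and 1 in the test for any diet difference (Eef1b2). At an adjusted p under 0.05, 1 was called for fat (Eif4b). Of 221 medians of the factors 219 moved by less than their spread. The replicate numbers did not pair the mice, since correlations of same-numbered mice ran from -0.548 to 0.487. With the animal number as a block, the median was 0.051 in LP vs NP and -0.038 for the interaction, no factor was called, and no other count of calls differed. A block for the paralog shares of LP vs NP was not possible because those diets share 1 number.

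Of 1327 recomputed log2 differences 1310 kept direction and side of the threshold. Eef1a2 in HF + LP vs HF was -0.017 by RLE size factors and by DESeq2 and -0.013 without mitochondrially encoded genes, and ran from -0.028 to 0.032 with 1 mouse left out. In HF + LP vs LP, Eef1a1 was 0.082 and Eef1a2 -2.6e-04 with the block, and with 1 mouse left out they ran from -0.34 to 0.007 and from -0.011 to 0.17, both ends nearest the other sign without LP mouse 13. The cause was not tested.

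Of 255 recomputed paralog share differences 228 kept their direction, and none was called. With the animal number as a block, which leaves only same-numbered mice (3 pairs in HF vs NP, 2 in HF + LP vs LP), Eef1a2 in HF + LP vs LP was -0.547 points, Eif4a2 in HF vs NP 12.5, and Eif4a2 in HF + LP vs LP -6.92. With 1 mouse left out, Eef1a2 in HF + LP vs LP ran from -0.0675 to 6.12 points. Eif4a2 ran from -5.06 to 4.73 in HF vs NP, -0.876 to 4.93 in LP vs NP, -2.19 to 7.60 in HF + LP vs HF, and -2.2 to 4.48 in HF + LP vs LP. Eif5a2 ran, in the same order, from -0.00755 to 0.0955, -0.0142 to 0.0512, -0.102 to 0.00147, and -0.0574 to 0.0283. Eif4e3 ran from -1.20 to 2.45 in HF vs NP and -2.89 to 1.1 in LP vs NP. The share of all factors without mitochondrially encoded genes was 0.944% in NP mice, 0.935% in LP mice, 0.995% in HF mice, and 0.981% in HF + LP mice.

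Depth kept Eif5a2 and Eef1akmt3 out of the tests. With 1 mouse left out, the number of factors at an unadjusted p under 0.05 ran from 8 to 14 for fat, 0 to 2 for protein restriction, and 1 to 2 for the interaction.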

Other observations

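Eif4g1 and Eif4g3 encode scaffolds of the cap-binding complex. Eif4g3 made up 5.6% of the normalized counts of this pair in HF mouse 2, with 339 beside 5711 of Eif4g1, and 31.2% in HF mouse 5, with 1338 beside 2951. In LP mouse 13 the share was 57.7%, with 1318 beside 967, and it was the 1 mouse in which Eif4g3 exceeded Eif4g1. The pair was chosen after its values were seen and was not tested.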
